A study of Mus musculus with 20 samples.

Results

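Metallothionein and zinc export genes were followed in cultured Mvt1 cells and in the tumors these cells form. The set holds 4 named genes, *Mt1*, *Mt2*, *Slc30a1* and *Mtf1*, of 50667 annotated genes in the cell values and 20188 in the tumor values, and all 4 were measured in both. The genes were chosen by symbol with results of the scramble against sh4 comparison in view. Their differences between groups, and how many of them a fit over all genes called, are therefore given as a description, with no test of their own. Mvt1 is a mouse mammary carcinoma line on the FVB background. One line carried a scramble shRNA (scr) and the other carried sh4, 1 hairpin against *Rnaseh2c*, a subunit gene of RNase H2. Both lines had been transduced with lentivirus and selected with puromycin, and each group is thus a single transduced line grown several times. The cultured cells gave 3 scr and 3 sh4 libraries of total RNA, numbered by plate and described as biological replicates. The tumors gave 3 scr and 3 sh4 mRNA libraries. They had grown to day 30, as labelled, after implantation of either line into the mammary fat pad of female FVB mice labelled wild type, which were about 6 weeks old when obtained. Each of 3 injection experiments supplied 1 scr and 1 sh4 tumor, and RNA was taken from small sections, so host cells are included. In such bulk tissue fewer cells of a type and less RNA per cell cannot be told apart.

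Metallothioneins are small cysteine-rich proteins that bind zinc, copper and cadmium and buffer the free metal in the cell. MTF-1, the product of *Mtf1*, is the zinc-sensing transcription factor that binds metal response elements in the promoters of *Mt1*, *Mt2* and *Slc30a1* when zinc is plentiful. ZnT1, the product of *Slc30a1*, is the exporter of zinc at the plasma membrane, and the proteins of the Slc39 family move zinc into the cytosol. The metallothionein promoters are also known to respond to glucocorticoids and oxidative stress.

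*Mt2* and *Mt1* lie next to each other on the forward strand of chromosome 8 in NCBIM37 (mm9), at chr8:96696518-96697467 and chr8:96702989-96704225, with 5521 bases between them. *Slc30a1* lies at chr1:193730646-193737126 and *Mtf1* at chr4:124479348-124527044, both on the forward strand. Promoter windows were taken from RefSeq on GRCm38.p6, where all 4 genes matched by symbol, and each matched NCBIM37 exactly at 1 place. The windows were searched from 250 bases before to 50 bases after the start for the core of the metal response element, written TGCACNC or TGCGCNC, on both strands. The 3 windows that hold a core are shown because their genes stood higher in sh4 cells. They are printed from 250 bases before to 30 bases after the start, at chr8:94178839-94179118 for *Mt1*, chr8:94172368-94172647 for *Mt2* and chr1:191906531-191906810 for *Slc30a1*, with the cores in capitals.
Mt1: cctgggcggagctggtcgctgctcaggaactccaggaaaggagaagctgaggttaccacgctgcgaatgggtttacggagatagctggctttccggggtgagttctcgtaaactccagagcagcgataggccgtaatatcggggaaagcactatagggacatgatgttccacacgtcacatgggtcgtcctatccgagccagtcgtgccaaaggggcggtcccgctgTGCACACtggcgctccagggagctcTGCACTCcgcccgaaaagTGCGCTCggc
Mt2: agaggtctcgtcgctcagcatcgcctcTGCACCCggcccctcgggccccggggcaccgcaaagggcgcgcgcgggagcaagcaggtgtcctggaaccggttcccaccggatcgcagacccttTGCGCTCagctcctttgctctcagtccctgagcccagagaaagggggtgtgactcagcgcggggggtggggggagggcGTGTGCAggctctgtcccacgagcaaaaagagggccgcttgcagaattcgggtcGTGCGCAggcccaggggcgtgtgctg
Slc30a1: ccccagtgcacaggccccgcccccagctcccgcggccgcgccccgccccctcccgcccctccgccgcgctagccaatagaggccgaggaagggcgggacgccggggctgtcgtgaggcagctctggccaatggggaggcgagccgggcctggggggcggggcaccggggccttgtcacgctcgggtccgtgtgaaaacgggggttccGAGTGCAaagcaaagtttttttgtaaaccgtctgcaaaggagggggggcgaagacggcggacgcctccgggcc

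The *Mt1* window held 3 cores, all read on the forward strand. Counted from the annotated start (base 1), they lay at -23 to -17, 3 to 9 and 21 to 27. The *Mt2* window held 4, of which 2 were read on the reverse strand. In *Slc30a1* both cores were on the reverse strand, at -43 to -37 and, beyond the printed bases, at 31 to 37. The *Mtf1* window held 0. In NCBIM37 this window begins at chr4:124479543, which lies after the start of *Mtf1* given above, so the bases before that start were not searched. Of 32841 promoter windows of the same length, 25.7% held at least 1 core, 7.12% at least 2, 1.97% at least 3 and 0.518% at least 4. The letters TGACNNNGC, the core of the antioxidant response element, occurred once in *Mt2* and once in *Slc30a1*, on either strand, against 12.4% of all windows with a match. The E-box CACGTG occurred in none of the 4 windows and in 7.15% of all. A match is a run of letters and shows no binding. The windows rest on the annotated starts, and whether transcription mainly begins there was not tested. Cores outside the windows were not counted.

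Precision rests on the spread between replicates, since read numbers are not given. FPKM (fragments scaled to gene length and library size) summed to between 659082 and 864566 in the cell libraries, lowest in scr plate 1, and RPKM (the same for reads) to between 399938 and 484868 in the tumors. The target *Rnaseh2c* was at 5.83, 7.06 and 5.34 FPKM in scr cells and 3.19, 5.36 and 4.28 FPKM in sh4 cells. Its log2 difference (sh4 minus scr) was -0.48 with a standard error (SE) of 0.18 and a limma adjusted p of 0.236, and the highest sh4 value lay just above the lowest scr value. In tumors it was at 26.9, 52.0 and 25.9 RPKM in scr and 10.2, 22.4 and 19.8 RPKM in sh4. The tumor groups did not overlap (log2 difference -0.98, SE 0.37, limma adjusted p of 0.995). Of the mammary carcinoma markers, the keratins *Krt8* and *Krt18* were at 269 to 349 and 165 to 217 FPKM in the cells, while *Epcam* and *Cdh1* were at most at 0.0228 and 0.018 FPKM. The 6 T cell markers together reached at most 0.0218 FPKM in a cell library.

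In cultured cells *Mt1*, *Mt2* and *Slc30a1* all stood higher with sh4, and *Mtf1* stood slightly lower. *Mt1* was at 16.1, 20.6 and 19.3 FPKM in scr plates 1 to 3 and at 42.3, 40.5 and 40.6 FPKM in sh4 plates 1 to 3. The lowest sh4 plate was thus well above the highest scr plate, and the sh4 plates lay close to each other. The means were 18.7 ± 2.31 and 41.1 ± 1.05 FPKM (SD, n = 3 in each group), and sh4 was at 2.20 times the scr mean. On the scale of log2(FPKM + 0.5) the difference was 1.12 with an SE of 0.093. This ranked the gene number 55 from the top among 21106 genes with a mean of at least 0.1 FPKM.

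*Mt2*, the other ubiquitous metallothionein, was at 2.59, 3.14 and 2.92 FPKM in scr plates and 9.58, 8.38 and 8.58 FPKM in sh4 plates. All sh4 plates were above all scr plates. The sh4 mean of 8.85 ± 0.643 FPKM was 3.07 times the scr mean of 2.88 ± 0.275 FPKM (SD, n = 3), with a log2 difference of 1.47 (SE 0.085) that ranked number 29 from the top. The level of *Mt2* relative to *Mt1* therefore differed between the groups as well. The ratio of *Mt2* to *Mt1* FPKM was 0.155 ± 0.00507 in scr and 0.215 ± 0.0101 in sh4 (SD, n = 3), with ranges of 0.152 to 0.161 and 0.207 to 0.226 that did not overlap. *Mt1* and *Mt2* are close paralogs with short transcripts, 753 and 556 exonic bases in the annotation, and reads that match both could be split between them by the counting. Their separate values and this ratio are uncertain for that reason.

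*Slc30a1*, the zinc exporter, was a low gene in these cells, at 0.555, 0.781 and 0.685 FPKM in scr plates. It was at 1.74, 1.81 and 1.88 FPKM in sh4 plates. The groups did not overlap, and the plates of a group differed by far less than the groups. The means were 0.673 ± 0.113 and 1.81 ± 0.0697 FPKM (SD, n = 3), a ratio of 2.69. The log2 difference of 0.98 (SE 0.092, number 71 from the top) understates this ratio because the added 0.5 is large beside a value under 1. With an added 0.1 the difference was 1.32 and with an added 1 it was 0.75.

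*Mtf1*, the zinc sensor, was at 3.27, 3.22 and 3.27 FPKM in scr plates and 2.76, 2.76 and 2.90 FPKM in sh4 plates. Every sh4 plate was below every scr plate, although by little. The sh4 mean of 2.81 ± 0.0823 FPKM was 0.863 times the scr mean of 3.25 ± 0.0265 FPKM (SD, n = 3), with a log2 difference of -0.18 (SE 0.055). The order of the 4 levels per length also differed between the groups. In scr plates it ran *Mt1*, *Mtf1*, *Mt2*, *Slc30a1*, and in sh4 plates *Mt1*, *Mt2*, *Mtf1*, *Slc30a1*, with no overlap between neighbours in either order.

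**Figure D1:**
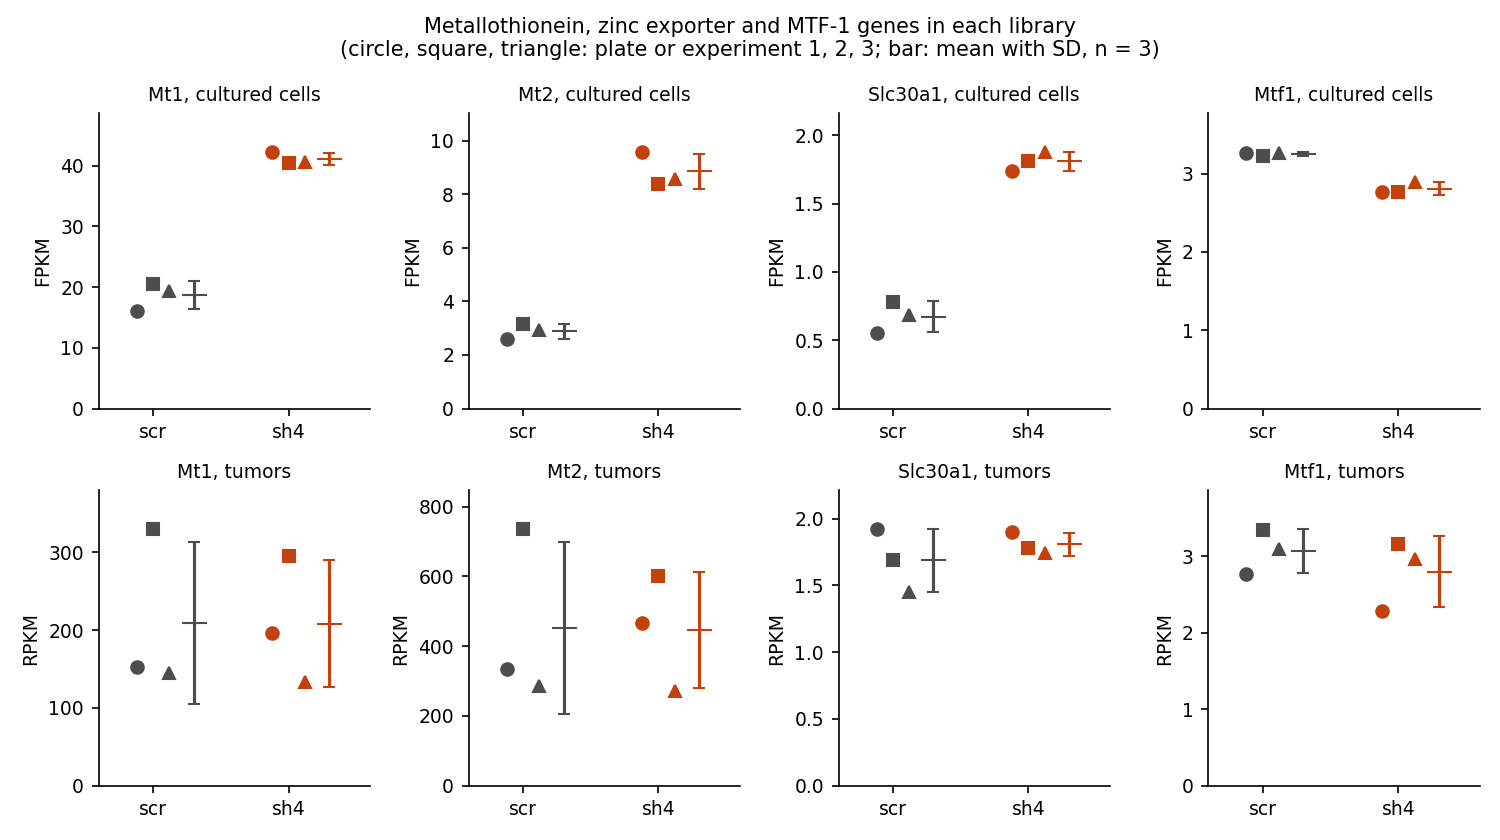
Level of *Mt1*, *Mt2*, *Slc30a1* and *Mtf1* in each library, as FPKM in cultured cells (top) and RPKM in tumors (bottom), for scr (grey) and sh4 (orange). Symbols mark plate or experiment 1, 2 and 3, and the bars beside them the mean with SD (n = 3). In cells the sh4 plates of *Mt1* lie between 40.5 and 42.3 FPKM, above the scr plates at 16.1 to 20.6 FPKM, while all 4 genes overlap between the tumor groups.

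Among all genes tested in the cells, limma called 270 at an adjusted p under 0.05 (1.28%), of which 110 were higher (0.521%) and 160 lower (0.758%) in sh4. *Mt1*, *Mt2* and *Slc30a1* were among those higher and *Mtf1* was not among those called. In 27.5% of the genes tested the groups did not overlap, as in these 4. Since the genes were chosen on this contrast, nothing is read from these counts. The number of these genes called fell without most single libraries. It was 3 of 4 without scr plate 1 and 0 of 4 without scr plate 3. Without scr plate 2 or without sh4 plate 1, 2 or 3 it was 1 of 4, *Mt2* in each case, while all genes called fell to between 2 and 18 over these 5 libraries. The differences themselves moved little, between 1.03 and 1.20 for *Mt1*, 1.40 and 1.52 for *Mt2*, 0.91 and 1.05 for *Slc30a1* and -0.20 and -0.17 for *Mtf1* with any 1 library left out. The balance of short against long transcripts varied between libraries, and its part in the differences was not tested. An index of this balance, the median log2 deviation of genes under 1000 exonic bases minus that of genes over 4000, was -0.13, 0.01 and 0.00 in scr plates and 0.08, 0.05 and 0.01 in sh4 plates. With it as a covariate the differences were 0.96 for *Mt1*, 1.34 for *Mt2* and 0.89 for *Slc30a1*, whose transcript is long at 5244 exonic bases.

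**Figure D2:**
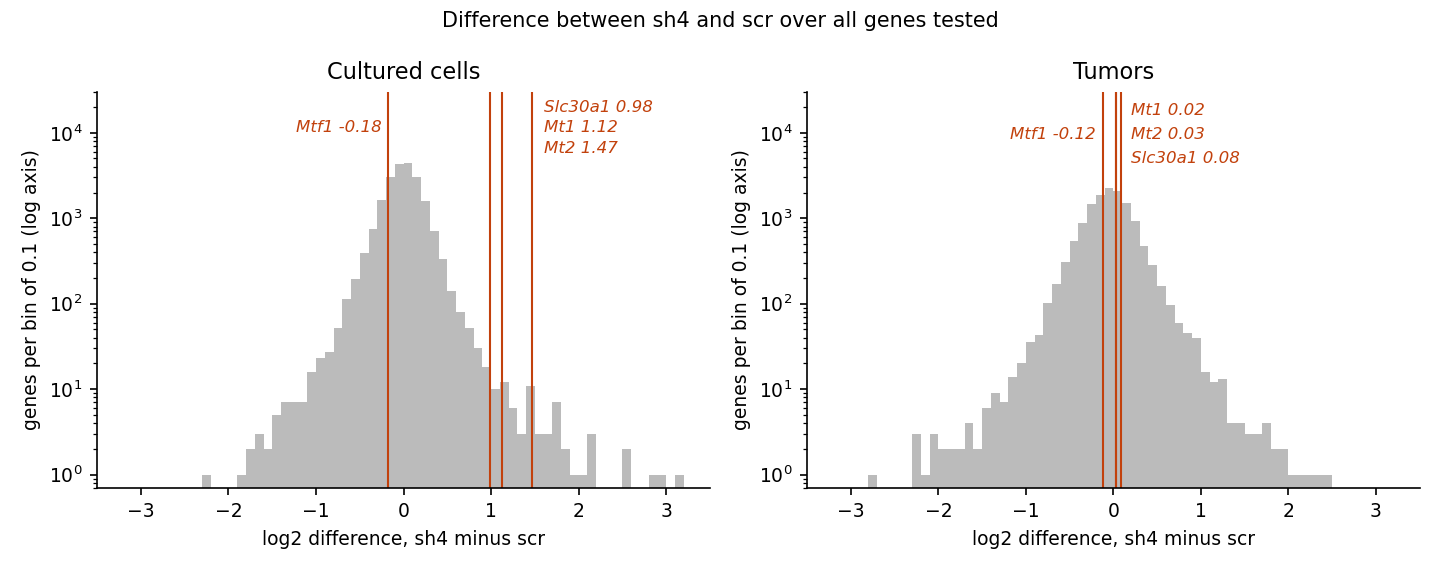
Number of genes per bin of 0.1 in the log2 difference between sh4 and scr, on a log axis, for 21106 genes tested in cultured cells and 13487 in tumors, with lines at the 4 genes. In cells the lines of *Slc30a1* (0.98), *Mt1* (1.12) and *Mt2* (1.47) stand in the right tail and *Mtf1* (-0.18) near the centre, while in tumors all 4 stand between -0.12 and 0.08.

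In tumors none of the 4 genes separated the groups. *Mt1* was at 153, 330 and 145 RPKM in scr tumors of experiments 1 to 3 and at 196, 295 and 133 RPKM in the sh4 tumors of the same experiments. The values of experiment 2 were the highest in both groups, and the groups overlapped throughout. The means were 209 ± 104 and 208 ± 81.8 RPKM (SD, n = 3), with a log2 difference of 0.02 (SE 0.39). Within experiments the log2 difference was 0.36, -0.16 and -0.12, higher in sh4 in 1 and lower in 2 of 3. *Mt2* was at 334, 736 and 287 RPKM in scr and 466, 601 and 271 RPKM in sh4 tumors. It followed *Mt1* from tumor to tumor, with the same order of the 6 tumors. The means were 453 ± 247 and 446 ± 166 RPKM (SD, n = 3), the log2 difference was 0.03 (SE 0.42), and within experiments it was 0.48, -0.29 and -0.09. With the experiment as a replicate block the SE fell to 0.18 for *Mt1* and 0.20 for *Mt2*.

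*Slc30a1* was at 1.92, 1.69 and 1.45 RPKM in scr and 1.90, 1.78 and 1.74 RPKM in sh4 tumors. Its spread was small, and it did not share the high values of experiment 2. The means of 1.69 ± 0.235 and 1.81 ± 0.0849 RPKM (SD, n = 3) gave a log2 difference of 0.08 (SE 0.19). *Mtf1* was at 2.77, 3.34 and 3.10 RPKM in scr and 2.28, 3.16 and 2.97 RPKM in sh4 tumors. In each experiment the sh4 tumor was below the scr tumor, by 0.23, 0.07 and 0.05 on the log2 scale, and the groups overlapped. The means were 3.07 ± 0.290 and 2.80 ± 0.464 RPKM (SD, n = 3), with a log2 difference of -0.12 (SE 0.21).

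Metallothioneins were among the most abundant tumor transcripts per length. The mean of *Mt2* over the 6 tumors lay above 99.0% and that of *Mt1* above 98.1% of the 13487 genes tested, against 69.8% and 93.6% of the genes tested in cells. *Slc30a1* lay above 28.6% of genes in tumors and 38.7% in cells, and *Mtf1* above 38.5% and 55.4%. In every tumor *Mt2* exceeded *Mt1*, at a ratio of 2.13 ± 0.133 in scr and 2.15 ± 0.198 in sh4 tumors (SD, n = 3), whereas in every cell library *Mt2* was below *Mt1*. The tables were made separately, from total RNA and from mRNA, and the methods name different gene models for them. The genes tested differ too, at 13487 in tumors and 21106 in cells. Neither the ratios nor these shares of genes can thus be compared between cells and tumors as levels. The order of levels in tumors was *Mt2*, *Mt1*, *Mtf1*, *Slc30a1* in both groups, where *Mt2* and *Mt1* overlapped over the tumors and the other neighbours did not.

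Limma called 0 of 13487 genes in tumors (0%), and 564 had an unadjusted p under 0.05 (4.18%). With the experiment as a replicate block it also called 0, with 911 at an unadjusted p under 0.05. The groups did not overlap for 9.17% of genes, and for 0 of the 4 genes here. Leaving out 1 tumor moved the difference of *Mt1* between -0.27 and 0.41 and that of *Mt2* between -0.23 and 0.45, so their sign rested on single tumors. Without scr tumor 2 both were highest. Without sh4 tumor 2 *Mt1* was lowest, and without scr tumor 3 *Mt2* was lowest.

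The tumors of experiment 2 also had the highest index of short over long transcripts. By experiment it was -0.20, 0.30 and -0.29 in the scr group and -0.35, 0.45 and 0.06 in the sh4 group. The high *Mt1* and *Mt2* values of experiment 2 thus came with a shift toward short transcripts in the same libraries, while sh4 tumor 1 had the lowest index and the third highest *Mt1*. With the index as a covariate the log2 differences were -0.12 for *Mt1* and -0.10 for *Mt2*, of the opposite sign to the values above and with SE of 0.30 and 0.35. Host tissue varied too. The summed adipocyte markers ranged from 41.6 to 2558 RPKM in scr and from 48.3 to 319 RPKM in sh4 tumors, highest in scr tumor 2, and all 10 were detected in tumors. Scr tumor 2 also held the highest *Mt1* and *Mt2*, whereas sh4 tumor 2, second in both, was at 92.3 RPKM for the adipocyte markers. The T cell markers, all 6 detected, summed to 19.2 to 29.2 RPKM in scr and 43.2 to 73.6 RPKM in sh4 tumors, without overlap. Taken singly, 4 of the 6 separated the groups, beside 9.17% of all genes tested, while *Cd3e* and *Cd4* overlapped. The macrophage markers summed to 676 to 764 and 699 to 939 RPKM, mostly from *C1qa* at 509 to 631 RPKM in scr and 513 to 857 RPKM in sh4, while 6 of the 7 had a negative log2 difference (median -0.37). The part of these cells and of the transcript length shift in the metallothionein values was not tested.

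**Figure D3:**
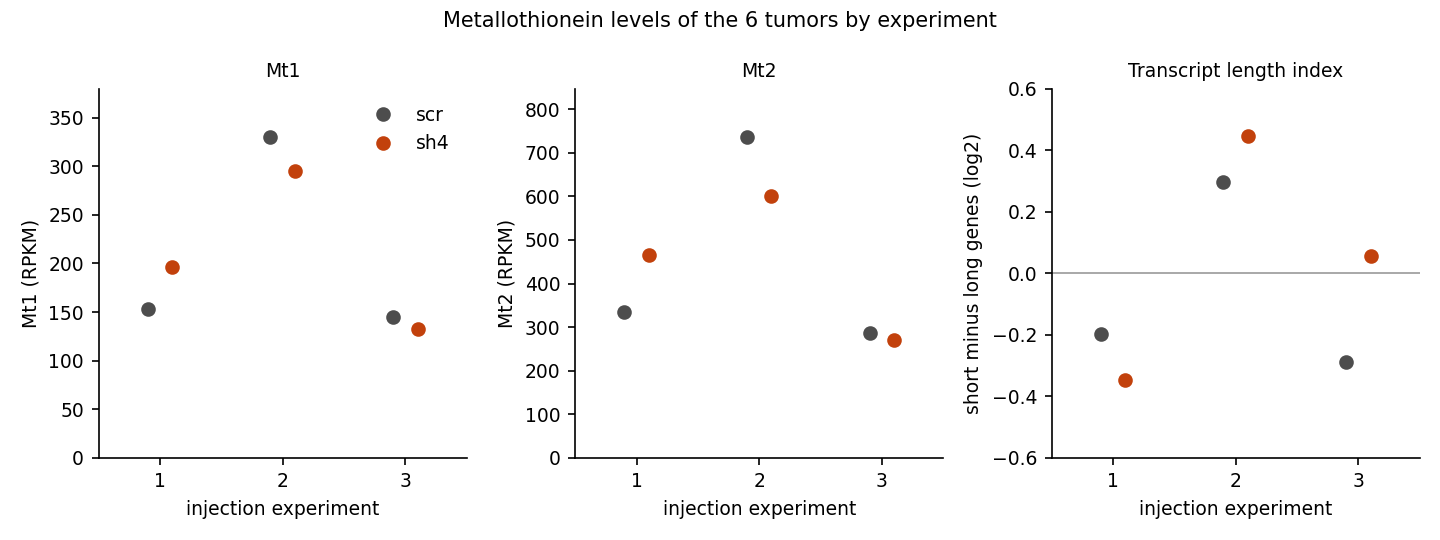
*Mt1* and *Mt2* (RPKM) and the transcript length index (log2, genes under 1000 minus genes over 4000 exonic bases) in the 6 tumors, by injection experiment, for scr (grey) and sh4 (orange). Both tumors of experiment 2 are the highest for *Mt1* (330 and 295 RPKM), for *Mt2* (736 and 601 RPKM) and for the index (0.30 and 0.45).

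Across the 6 cell libraries the 4 genes were correlated as their group differences require. On the log2 scale *Mt1* had a Pearson r of 0.995 with *Mt2*, 0.996 with *Slc30a1* and -0.969 with *Mtf1*. These libraries share the 2 groups, and 1005 of 13703 genes with a mean of at least 1 FPKM had an r over 0.9 with *Mt1*. The 5 most alike were *Dusp19*, *Podxl*, *Dcp2*, *Slc30a1* and *Stk40*, with r of 0.999, 0.998, 0.998, 0.996 and 0.996, and *Mt2* ranked number 8. After removal of group means, r with *Mt1* was 0.877 for *Mt2*, 0.879 for *Slc30a1* and -0.295 for *Mtf1*. In that view 1686 genes were over 0.9, led by *Trim30a*, *Prpf4b*, *Gm9083*, *SNORD83* and *Zbtb17*.

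In tumors the metallothioneins moved as a pair, apart from the exporter and the sensor. *Mt1* had an r of 0.987 with *Mt2*, 0.131 with *Slc30a1* and 0.355 with *Mtf1* over the 6 tumors, which share the 3 experiments. Reads that match both paralogs could be split between *Mt1* and *Mt2* here too. The part of such reads and of the transcript length shift in the r of 0.987 was not tested. Only 18 of 10722 genes exceeded 0.9 with *Mt1*. The most alike were *Orm3* (r 0.991), *Mt2* (0.987), *Trmt12* (0.964), *Eif4a1* (0.964) and *Smu1* (0.963). With group means removed they were *Orm3*, *Smu1*, *Mt2*, *Batf* and *Pef1*, between 0.991 and 0.985. *Orm3*, a gene of the orosomucoid acute-phase family, was at 16.5, 37.4 and 13.6 RPKM in scr and 19.1, 34.5 and 13.8 RPKM in sh4 tumors, so that experiment 2 was again highest in both groups. In cells it did not follow *Mt1*, with 9.91, 8.88 and 9.24 FPKM in scr and 7.93, 7.08 and 7.55 FPKM in sh4 plates.

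The remaining metallothioneins were near the floor. *Mt3*, known mainly from brain, and *Mt4*, known from stratified squamous epithelium, lie just before *Mt2* on chromosome 8. In cells *Mt3* was at most at 0.0305 FPKM and *Mt4* between 0.0475 and 0.143 FPKM, both under the mean of 0.1 FPKM needed for the fit. In tumors *Mt3* was between 0.101 and 0.553 RPKM, with a log2 difference of 0.27 (SE 0.21). *Mt4* was at 0.323, 1.75 and 0.387 RPKM in scr tumors and 0.194, 0.258 and 0.129 RPKM in sh4 tumors. The groups did not overlap, scr tumor 2 stood far above the others, and the limma adjusted p was 0.995 (log2 difference -0.77, SE 0.36). These low tumor values fell on whole multiples of 1 step per gene, within 1%, of 0.0503 RPKM for *Mt3* and 0.0646 RPKM for *Mt4*. In steps, *Mt4* was at 5, 27 and 6 in scr and 3, 4 and 2 in sh4 tumors, and *Mt3* at 2 to 11. If 1 step is 1 read, these are counts of a few reads. The step was the same in all 6 tumors. If it is 1 read, a single divisor served all 6, and the depth of each cannot be read from it. Whether the library sizes were made equal or were left unscaled is not stated. Beyond this cluster, *Bbs2*, the protein-coding neighbor before *Mt4*, had a log2 difference of -0.11 in cells (SE 0.066, limma adjusted p of 0.403). On the *Mt1* side *Nup93*, a nuclear pore gene, was at 0.389 to 0.443 FPKM in scr and 0.508 to 0.586 FPKM in sh4 cells. That is a log2 difference of 0.19 (SE 0.075, limma adjusted p of 0.258), far smaller than that of *Mt1* next to it. *Slc12a3* was near 0 in both tables, and *Herpud1*, an endoplasmic reticulum stress gene, had a log2 difference of -0.15 in cells (SE 0.085, limma adjusted p of 0.397).

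The other zinc transporters had smaller differences in cells than *Slc30a1*. Counts of listed genes at an unadjusted p under 0.05 stand here beside 18.9% of all genes tested in cells and 4.18% in tumors. Of 9 other Slc30 exporter genes, 6 were tested in cells and in tumors, and 0 passed the limma test in either, with 1 of 6 lower at an unadjusted p under 0.05 in cells, near the share over all genes, and 0 in tumors. Their median log2 difference was 0.05 in cells and -0.11 in tumors, beside medians of -0.002 and -0.04 over all genes tested. *Slc30a4*, which loads zinc into vesicles and milk, was the highest of them at 54.1 to 65.0 FPKM in cells, well above *Slc30a1*, with a log2 difference of 0.12 (SE 0.070). *Slc30a5* was at 17.2, 20.7 and 20.7 FPKM in scr and 22.7, 21.6 and 22.8 FPKM in sh4 plates (log2 difference 0.19, SE 0.081, limma adjusted p of 0.268). *Slc30a7* went the other way, at 3.87 to 3.94 FPKM in scr and 3.39 to 3.55 FPKM in sh4 plates (log2 difference -0.15, SE 0.052, limma adjusted p of 0.216). Both serve the secretory pathway.

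Of 14 Slc39 importer genes, 10 were tested in cells and 12 in tumors, and 0 passed in either. At an unadjusted p under 0.05 limma put 2 higher and 1 lower of 10 in cells, beside 18.9% of all genes, and 0 in tumors. Their median log2 differences were -0.01 and -0.19. *Slc39a10*, a plasma membrane importer that MTF-1 is known to repress, came nearest the threshold. It was at 11.5, 13.5 and 13.1 FPKM in scr and 9.66, 9.25 and 8.93 FPKM in sh4 plates, without overlap (log2 difference -0.43, SE 0.073, limma adjusted p of 0.0535). In tumors it was at 4.90, 1.69 and 4.31 RPKM in scr and 6.94, 1.10 and 2.14 RPKM in sh4 (log2 difference -0.28, SE 0.58). *Slc39a13*, which serves the secretory pathway, was at 8.54 to 9.66 FPKM in scr and 10.8 to 11.8 FPKM in sh4 plates (log2 difference 0.28, SE 0.065, limma adjusted p of 0.0984). The most abundant importers, *Slc39a1* and *Slc39a7*, had log2 differences of -0.02 and -0.01 in cells.

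**Figure D4:**
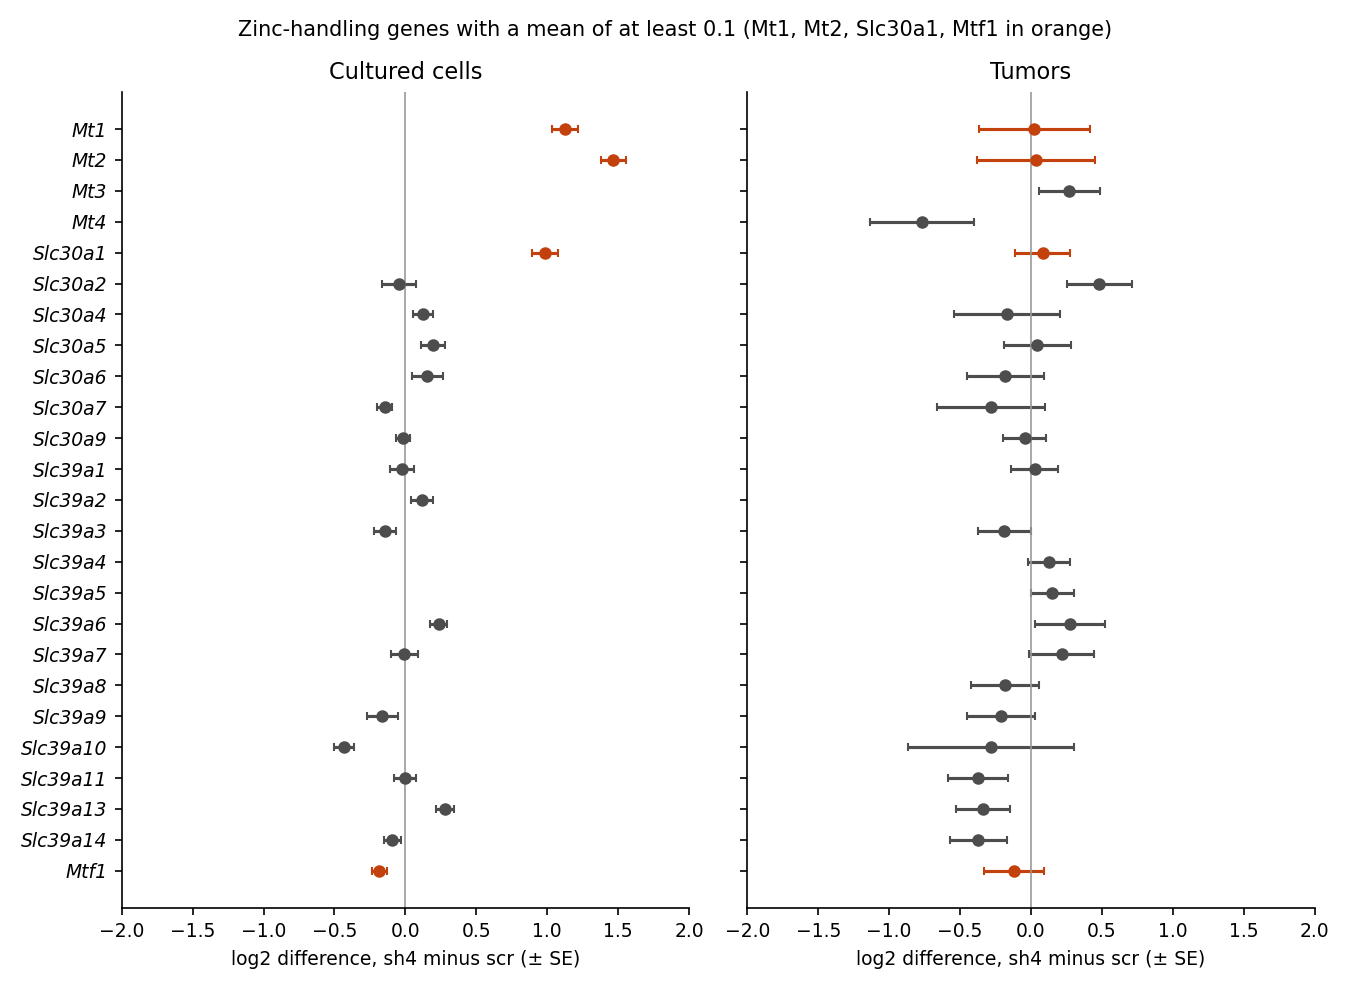
Log2 difference between sh4 and scr with its SE for the metallothioneins, the Slc30 and Slc39 zinc transporters and *Mtf1*, in cultured cells (log2(FPKM + 0.5)) and tumors (log2(RPKM + 0.5)), for genes with a mean of at least 0.1. In cells *Mt1* (1.12), *Mt2* (1.47) and *Slc30a1* (0.98) lie apart from all other transporters, which range between -0.43 and 0.28, and in tumors all error bars of *Mt1*, *Mt2* and *Slc30a1* cross 0.

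Of 7 tested genes in a list of others linked to MTF-1, which also holds *Slc39a10*, 1 was called in cells and 0 in tumors. At an unadjusted p under 0.05, 2 were higher and 2 lower in cells, where 18.9% of all genes passed that threshold, and 1 was lower in tumors. *Slc40a1*, encoding the iron exporter ferroportin, fell in sh4 cells, from 1.45, 1.55 and 1.42 FPKM in scr to 0.744, 0.957 and 0.685 FPKM (log2 difference -0.61, SE 0.098, limma adjusted p of 0.0494). It was the 1 gene called among 72 tested genes of 9 metal, stress and hormone lists, of which 12 were higher and 8 lower at an unadjusted p under 0.05. Over all genes tested in cells 1.28% were called and 18.9% had an unadjusted p under 0.05. In this fit the called share of the lists, which rests on 1 gene, was near that of all genes. With other scalings it was larger than that of all genes. Quantile normalization called 11 list genes beside 1223 of 21106 genes, and median-ratio scaling 13 beside 1230 of 21113. The call of *Slc40a1* was lost with any 1 library left out, with limma adjusted p from 0.0754 to 0.176. *Sepw1*, a selenoprotein gene, was at 10.9 to 12.8 FPKM in scr and 15.1 to 17.5 FPKM in sh4 plates (log2 difference 0.44, SE 0.081, limma adjusted p of 0.0636). *Csrp1* had a log2 difference of 0.33 (SE 0.087, limma adjusted p of 0.127). In tumors *Ndrg1* was at 76.4, 61.2 and 80.6 RPKM in scr and 56.5, 40.2 and 47.9 RPKM in sh4, without overlap (log2 difference -0.59, SE 0.19, limma adjusted p of 0.995).

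In lists of regulators, copper and iron genes, stress programs and the glucocorticoid response, 0 genes were called in cells. Of all genes tested there, 1.28% were called and 18.9% had an unadjusted p under 0.05. The count of 0 depends on the scaling. With quantile normalization limma called 1223 genes in all, 11 of them in the metal, stress and hormone lists. *Tfrc* (adjusted p of 0.00953), *Hspe1* (0.0120), *Fkbp5* (0.0333) and *Txnrd1* (0.0474) were among those called higher in sh4. *Slc39a10* (0.00668) and *Slc40a1* (0.0337), from the lists described before, were among those called lower. The regulators tested, *Mtf2*, *Sp1*, *Usf1*, *Usf2* and *Stat3*, had log2 differences between -0.23 and 0.16, and 0 of 5 passed the limma test, with 1 higher and 1 lower at an unadjusted p under 0.05. Of 15 copper and iron genes tested, 0 passed the limma test, and 2 were higher and 4 lower at an unadjusted p under 0.05. Among the 4 lower, *Cp* was at 2.02, 2.01 and 2.26 FPKM in scr and 1.56, 1.66 and 1.57 FPKM in sh4 plates. Its log2 difference was -0.31 (SE 0.070, limma adjusted p of 0.0955). The transferrin receptor gene *Tfrc* was at 18.9, 22.2 and 21.7 FPKM in scr and 28.4, 27.1 and 27.0 FPKM in sh4 plates (log2 difference 0.39, SE 0.072, limma adjusted p of 0.0673), and ferritin *Fth1* had a log2 difference of 0.17. Of 11 NRF2 and oxidative stress genes 0 passed, with 1 higher at an unadjusted p under 0.05. *Hmox1*, the heme oxygenase gene that metals and oxidants induce, was at 5.78 to 6.45 FPKM in scr and 6.32 to 6.48 FPKM in sh4 plates (log2 difference 0.06, SE 0.058). Of 11 heat shock genes 0 passed, with 2 higher at an unadjusted p under 0.05. These 2 were *Hspe1* and *Hspd1*, with log2 differences of 0.36 (SE 0.080, limma adjusted p of 0.0938) and 0.21 (SE 0.085, limma adjusted p of 0.246). Of the 11, 8 had a positive and 3 a negative difference. The inducible *Hspa1a* and *Hspa1b* both had a log2 difference of -0.03. Of 9 glucocorticoid response genes 0 passed, with 2 higher at an unadjusted p under 0.05. *Fkbp5* was at 10.3 to 11.6 FPKM in scr and 12.7 to 14.2 FPKM in sh4 plates (log2 difference 0.26, SE 0.069, limma adjusted p of 0.127), while *Tsc22d3*, the gene of GILZ, had a log2 difference of -0.15 (SE 0.079).

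The same lists in tumors held no called gene. Of 77 tested genes, 0 were higher and 3 lower at an unadjusted p under 0.05, near the share of 4.18% over all genes tested. The 3 were *Ndrg1*, *Hspa1a* and *Hspa1b*. The last 2 had log2 differences of -1.04 (SE 0.38) and -1.01 (SE 0.40) with overlapping groups and a limma adjusted p of 0.995. All 11 NRF2 and oxidative stress genes tested had a negative log2 difference, with a median of -0.30 beside -0.04 over all genes tested. As the latter median is below 0, most genes tested were negative too. The groups overlapped for all 11 NRF2 and oxidative stress genes, and 0 passed at an unadjusted p under 0.05 in limma. *Hmox1* among them was at 75.1, 52.5 and 29.1 RPKM in scr and 45.9, 23.9 and 24.2 RPKM in sh4 tumors.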

How the data were processed

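The authors deposited FPKM per gene and assembled locus for 6 total RNA libraries of cultured cells and RPKM per gene for 6 tumor mRNA libraries. Tumor reads had been trimmed with Trimmomatic and aligned to mm9 and Ensembl v70 transcripts by Tophat, before work in the Partek Genomics Suite. For the cells the methods name Tophat, GENCODE M15 and DESeq2, while the submitters' processing notes list STAR 2.7 and TopHat2 2.1.0 with no role. The quantifier is not given in the sources used here. Neither unit is a count, so DESeq2 was not used. Exome libraries were not analysed here.

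The 4 genes, the gene lists and the rule for named genes were chosen with earlier results of these data known. The rule takes the 4 genes, the called genes of each list with its 2 genes of smallest p and its 2 of highest mean, the 5 genes per table most correlated with *Mt1*, 3 protein-coding neighbors on each side of the *Mt2* and *Mt1* pair, and *Rnaseh2c*. The report uses some of these, and adds marker genes. Assembled loci (239874) were left out. In the cells 32709 Ensembl IDs matched a symbol in a reference list of gene names, and in the tumors 19679 symbols matched GENCODE vM1. Genes with a mean of at least 0.1 were compared on log2(value + 0.5) in R 4.3.3 by limma 3.58.1, using a variance trend. P-values were adjusted by Benjamini-Hochberg over all genes tested and called under 0.05. The code was tested on simulated data. Tumor numbers mark a shared experiment by the labels, and same-numbered tumors correlated at 0.143, 0.347 and -0.135 after removal of group means. None of 12 housekeeping genes was at 0 in any library. The transcript length index was an alternative chosen after seeing the data.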

Additional observations from a re-analysis of the deposited data

How the results depend on the processing

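In cells 270 genes were called by limma, of which 3 were among *Mt1*, *Mt2*, *Slc30a1* and *Mtf1* and 1 (*Slc40a1*) among the zinc, metal, stress and hormone genes. In the same order the counts were 77, 3 and 0 with no filter, 408, 3 and 3 at a mean of at least 1, 1223, 3 and 11 with quantile normalization, 1230, 3 and 13 with median-ratio scaling, and 171, 3 and 0 without the trend. With a pseudocount of 0.1 the metal gene count was 0, and with the transcript length index as a covariate it was 2, *Slc39a10* and *Tfrc*, while *Slc40a1* was not called (adjusted p of 0.0848). With the plate number as a replicate block the counts were 0, 0 and 0, with 2813 genes at an unadjusted p under 0.05. Whether same-numbered plates were handled together is not stated. They correlated at -0.057, -0.081 and -0.089 after removal of group means, and no scr plate correlated best with its own number. These values cannot decide the pairing, since the tumors of experiment 3, which share an experiment, correlated at -0.135. Leaving out 1 cell library gave 2 (without scr plate 3) to 242 genes called (without scr plate 1), 0 to 3 of the 4 genes and 0 to 2 metal genes. The count was 7 without scr plate 2 and 15, 18 and 15 without sh4 plates 1 to 3. Fewer libraries leave fewer degrees of freedom.

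The log2 difference in cells moved by more than the replicate spread to 1.59 and 1.34 for *Mt2* and to 1.32 and 0.75 for *Slc30a1* with a pseudocount of 0.1 and 1, and to 0.96 for *Mt1* and 1.34 for *Mt2* with the length index. Elsewhere the 4 genes moved by less than the replicate spread. In cells none changed sign, while in tumors *Mt1* and *Mt2* did with the index or without a tumor and *Mtf1* did without sh4 tumor 1, at 0.00. *Slc39a10* was called lower in cells at a mean of at least 1, with quantile or median-ratio scaling, with the index and without scr plate 1. In tumors every alternative gave 0 calls.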
